A study of Arabidopsis thaliana with 12 samples.

Results

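Among the genes that differed between wounded and not wounded Arabidopsis leaves, 41 had a moderately higher signal after wounding, with a mean log2 ratio of wounded over not wounded from 1.0 to 1.8, which is about a 2-fold to 3.5-fold difference. They were chosen by this ratio itself: a spot on the array had to be annotated to exactly 1 gene, to have its mean over 3 biological replicates in that range, and to be above 0 in each replicate. Of 9335 spots annotated to 1 gene, 51 met these conditions, which is 0.546%, and 10 of the 51 were set aside by name (CML23, COR15B, CCL, PORB, AP2C1 and 5 further loci). The 41 spots left stand for 41 different genes, none of which had another spot annotated to it. Since the wounding ratio chose these genes, it is given below as a description with its spread and with no test.

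Rosette leaves of 3-week-old plants of ecotype Col (Columbia-0 in the study's methods), grown on soil, were crushed with a hemostat and sampled 5 min later, and leaves of the same ecotype that had not been wounded served as the control. No transgene or added agent is given for either sample. RNA of a wounded pool of plants and of a not wounded pool was hybridised together to a 2-colour Agilent array, and 3 such pairs of pools, the biological replicates, were each measured on 4 arrays, with the dyes exchanged on 2 of the 4. The question put to the arrays was which transcripts already differ within minutes of mechanical damage.

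Wounding a leaf is followed within seconds to minutes by calcium entry, reactive oxygen species and activation of protein kinases, and a first wave of transcripts accumulates before jasmonate and other hormones take over much of the response. Such early transcripts are often those of transcription factors, ubiquitin ligases and membrane proteins, and many of them also respond to cold, touch or microbial molecules. Many plant genes of this kind have no assigned function and are known only by their locus tag, which is how most of the genes here are called. In whole leaves, a higher ratio from more RNA per cell and one from a larger share of a cell type in the wounded pool cannot be told apart.

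On 1 array of replicate 3 with the wounded sample in Cy3, the channel label numbers the wounded sample 4 while the title gives replicate 3, and the title was followed. Without that array 54 named spots met the conditions, 36 of them among the 41 genes, and the 41 genes had a median log2 ratio of 1.20 in place of 1.12. The replicate numbers of the titles were also followed where the arrays did not bear them out. Over the spots that passed the filter on dim values, the deviations of the arrays with wounded RNA in Cy5 from their mean were set against those of the arrays with it in Cy3. They correlated at 0.14, -0.43 and -0.64 within replicates 1, 2 and 3, but at 0.67 between replicate 2 in Cy5 and replicate 3 in Cy3 and at 0.62 between replicate 3 in Cy5 and replicate 2 in Cy3. Whether numbers 2 and 3 are exchanged on some arrays cannot be told from the labels. The means over all 12 arrays do not depend on it, while each value and SD by replicate, the condition on the replicates and the test between the dyes do. Array medians of the processed signals, in intensity units, lay between 309 and 383. Spots that the authors' table sets to a ratio of exactly 0 numbered from 1129 up to 2714. On each array, the level under which 95% of the signals of such spots fell, between 81 and 124, is called the dim limit here. None of the 41 genes was among the spots set to 0 on any array, also where its signal was below that level. Of 8 leaf, 4 guard cell and 2 root markers listed, 2, 1 and 1 had a named spot. These were RCA (Rubisco activase), LHCB4.1 (a chlorophyll-binding antenna protein), GC1, a guard cell marker, and EXPA7, an expansin known from root hairs. All were above the dim limit in both samples on 12 of 12 arrays, and their log2 ratios were -0.45, -0.03, -0.09 and 0.01. With the wounded sample in Cy5 these were -0.41, -0.73, 0.12 and -0.73, and with it in Cy3 -0.49, 0.66, -0.29 and 0.75. The means near 0 of LHCB4.1, GC1 and EXPA7 thus average values of opposite sign.

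The 41 genes lay in the upper tail of the ratios. Over all 9335 spots of 1 gene the median log2 ratio was 0.01, and 13 named spots lay above the range of the 41. Within the 41 the mean log2 ratio went from 1.00 to 1.7, which is a fold difference from 2.00 to 3.24, with a median of 1.12. The values thin out quickly toward the top, and 23 of the 41 would remain with a lower bound of 1.1.

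**Figure D1:**
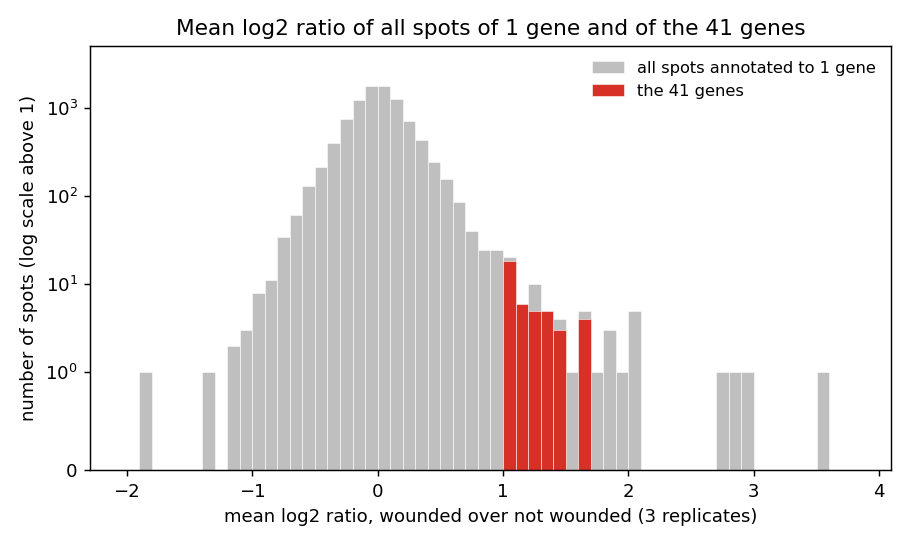
Number of spots (log scale above 1) against the mean log2 ratio of wounded over not wounded over 3 replicates, in bins of 0.1, for all 9335 spots annotated to 1 gene (grey) and for the 41 genes (red). The 41 genes fill most of the bins from 1.0 to 1.7, far to the right of the median of 0.01.

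Just inside the lower bound were AT3G57450 (1.00), AT5G35735 (1.01) and AT1G70420 (1.01), and just outside it AT5G42050 (0.99), AT2G34970 (0.98) and AT5G45020 (0.97). At the upper end AT1G15010 (1.7), AT3G50800 (1.67) and AT4G29780 (1.64) were the highest members, and AT1G76600 (1.82), AT3G56880 (1.86) and AT3G62550 (1.89) lay above it. The differences across either bound were smaller than the SD of most of these genes, so the bounds separate no distinct classes. AT2G38240 had a mean in the range (1.75 ± 2.04, SD, n = 3) but was not above 0 in every replicate.

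The members are described by role, with roles taken from general knowledge of these loci after the members were known, so the groups are an order of presentation and were not tested. For 29 of the 41 genes a role or a domain is given, and for the other 12 only the locus. The groups had similar medians, from a log2 ratio of 1.06 for the 5 genes of cell wall, cytoskeleton, transport and enzymes to 1.21 for the 7 genes with domains of unknown function.

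Of the 4 genes grouped under transcription, RNA and chromatin, AT4G29780 had the highest log2 ratio. It encodes a nuclease of the kind found in Harbinger transposons, and had 2.16, 1.7 and 1.06 in replicates 1, 2 and 3 (mean 1.64 ± 0.55, SD, n = 3). Its not wounded signal was 322, 366 and 363 and its wounded signal 1436, 1188 and 756. The not wounded levels lay close together, and the wounded level of replicate 3 was the lowest of the 3. AT4G14270, which carries a motif that binds poly(A)-binding proteins and is related to ERD15, had 0.75, 1.54 and 1.38 (mean 1.22 ± 0.41, SD, n = 3). AT5G46710, a zinc-binding protein of the PLATZ transcription factor family, was nearly the same in the replicates when averaged over the dyes. It had 0.97, 1.1 and 0.97 (mean 1.01 ± 0.08, SD, n = 3). AT5G46680, a pentatricopeptide repeat protein of the type that edits or processes organelle RNA, had 0.67, 0.80 and 1.86 (mean 1.11 ± 0.65, SD, n = 3) from a dim spot, and is taken up with the dye orientations.

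Among the 6 genes of signalling and protein turnover, AT3G47160, a RING finger protein of the type that acts as a ubiquitin ligase, stood highest, with a log2 ratio of 1.67, 1.7 and 1.47 in the replicates (mean 1.61 ± 0.12, SD, n = 3). A second RING finger gene, AT1G19310, had 1.24, 1.05 and 0.94 (mean 1.08 ± 0.15, SD, n = 3). AT5G63130, with a PB1 domain that joins signalling proteins, had 1.09, 1.42 and 1.1 (mean 1.20 ± 0.19, SD, n = 3). All of these were above 0 on every array. AT3G47160 was lowest in replicate 3 when averaged over the dyes, but not in each dye. With wounded RNA in Cy5 its replicates had 1.68, 2.18 and 0.89, and with it in Cy3 1.66, 1.22 and 2.06. AT1G33970, a GTP-binding protein of the AIG1 family named after an avirulence-induced gene, had 1.20, 1.13 and 1.09 (mean 1.14 ± 0.05, SD, n = 3). This was one of the smallest spreads of the set when averaged over the dyes. With wounded RNA in Cy5 the gene had 1.25, 1.35 and 1.03, and with it in Cy3 1.14, 0.90 and 1.16. AT5G66650, a member of the mitochondrial calcium uniporter family, had 0.96, 1.09 and 1.26 (mean 1.1 ± 0.15, SD, n = 3), and AT3G26020, a regulatory B subunit of protein phosphatase 2A, 1.44, 0.53 and 1.14 (mean 1.04 ± 0.47, SD, n = 3). Both of these spots were dim, and their ratio depended on the dye.

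The 7 genes of membranes, stress and defence include a pair of neighbours, AT4G30660 and AT4G30650, small hydrophobic membrane proteins of the family of the cold-induced RCI2 genes. AT4G30660 had a log2 ratio of 1.02, 1.63 and 1.55 in the replicates (mean 1.40 ± 0.33, SD, n = 3), and AT4G30650 had 0.23, 1.68 and 1.36 (mean 1.09 ± 0.76, SD, n = 3). Both were lowest in replicate 1, and AT4G30650 was there closer to 0 than any other member in any replicate. AT4G30650 had the largest SD of the 41 genes. The spots are of related genes and could share signal, which was not tested.

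AT2G27080, a protein of the NDR1/HIN1-like family, whose founding member NDR1 is needed for several disease resistance responses, had 2.31, 1.23 and 0.95 (mean 1.50 ± 0.72, SD, n = 3). Its signal went from 238 to 1181 in replicate 1, from 597 to 1404 in replicate 2 and from 437 to 841 in replicate 3. Replicate 1 had the lowest not wounded signal and a wounded signal between those of the other replicates. AT3G53990, a universal stress protein, had 1.05, 1.24 and 1.27 (mean 1.19 ± 0.12, SD, n = 3). AT3G15450, described as an aluminium-induced protein, had 1.02, 1.16 and 1.11 (mean 1.1 ± 0.07, SD, n = 3). AT1G52200 is of the cysteine-rich PLAC8 family of membrane proteins, and AT5G35735 has the cytochrome b561 and DOMON domains of membrane redox proteins. Their means were 1.05 ± 0.23 and 1.01 ± 0.20 (SD, n = 3). Averaged over the dyes, both were highest in replicate 1 and lowest in replicate 3. For AT5G35735 this order did not hold in each dye. It had 1.08, 1.12 and 0.34 with wounded RNA in Cy5, and 1.39, 0.77 and 1.34 with it in Cy3.

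The 5 genes of the next group encode enzymes, a transporter and a cytoskeletal protein. AT2G39920, an acid phosphatase of the HAD superfamily, had a log2 ratio of 1.39, 1.75 and 1.29 (mean 1.48 ± 0.24, SD, n = 3), the highest of them. AT4G01130, a GDSL-type esterase or lipase, had 1.06, 1.33 and 0.98 (mean 1.12 ± 0.18, SD, n = 3), and WLIM2a, a LIM domain protein that binds and bundles actin filaments, 0.70, 1.38 and 1.1 (mean 1.06 ± 0.34, SD, n = 3). Averaged over the dyes, all these values were at least 0.70, and replicate 2 was the highest for each of them. AT2G41640, a glycosyltransferase of family 61, had 1.25, 0.89 and 0.97 (mean 1.04 ± 0.19, SD, n = 3). PUP18, which belongs to the purine permeases that carry purines and cytokinin-like molecules, had 1.79, 0.74 and 0.59 (mean 1.04 ± 0.65, SD, n = 3). Its not wounded signal was 556 in replicate 1 against 1328 and 912 in replicates 2 and 3, while its wounded signal was 1919, 2214 and 1369. As for AT2G27080, the not wounded level of replicate 1 was the lowest.

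A group of 7 genes carries domains of unknown function, and 3 of them, AT1G23710, AT1G70420 and AR781 (AT2G26530), share the same one. AT1G23710 had a log2 ratio of 1.36, 1.48 and 1.30 (mean 1.38 ± 0.09, SD, n = 3), AT1G70420 had 0.62, 1.28 and 1.13 (mean 1.01 ± 0.35, SD, n = 3), and AR781 had 1.50, 0.82 and 0.87 (mean 1.06 ± 0.38, SD, n = 3). The related genes thus did not vary alike, since replicate 1 was the lowest for AT1G70420 and the highest for AR781. AT1G74440 and AT1G74450 are neighbours on chromosome 1 with unrelated domains. AT1G74440 had 1.35, 1.46 and 1.20 (mean 1.34 ± 0.13, SD, n = 3) and AT1G74450 had 1.59, 1.12 and 0.91 (mean 1.21 ± 0.35, SD, n = 3). AT1G11210 had 0.84, 1.94 and 1.43 (mean 1.40 ± 0.55, SD, n = 3) and AT1G19380 had 1.53, 1.01 and 0.90 (mean 1.15 ± 0.34, SD, n = 3). For AT1G11210 the not wounded signal was alike in the replicates, at 110, 100.4 and 114, and the wounded signal differed, at 196, 385 and 308. These not wounded signals lay near the dim limit, and below it on 4 of 12 arrays, so their likeness says little about the control level.

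For the last 12 genes no role is given. The highest 2 of the whole set are among them: AT1G15010 with a log2 ratio of 1.53, 2.14 and 1.42 (mean 1.7 ± 0.39, SD, n = 3, a fold difference of 3.24) and AT3G50800 with 1.91, 1.54 and 1.56 (mean 1.67 ± 0.20, SD, n = 3, a fold difference of 3.18). Another 4 had means above 1.2: AT3G15630 (1.35 ± 0.20), AT5G10695 (1.31 ± 0.33), AT2G15960 (1.29 ± 0.28) and AT2G27830 (1.28 ± 0.09; SD, n = 3 each). AT3G15630 had 1.14, 1.53 and 1.38 in the replicates. AT2G27830, with 1.18, 1.34 and 1.32, varied least among these when averaged over the dyes. It had 1.13, 1.44 and 1.09 with wounded RNA in Cy5, and 1.23, 1.24 and 1.55 with it in Cy3. The other 6 lay close to the lower bound, AT1G58420 at 1.09 ± 0.36, AT5G25210 at 1.07 ± 0.16, AT1G22250 at 1.04 ± 0.24, AT3G23170 at 1.03 ± 0.21, AT5G61040 at 1.03 ± 0.41 and AT3G57450 at 1.00 ± 0.05 (SD, n = 3 each). The spot of AT5G61040 was dim, and its mean averages 3.94 with wounded RNA in Cy5 and -1.89 with it in Cy3. AT3G57450, with 1.04, 1.02 and 0.94, had the smallest SD of the 41 genes. These values average over the dyes. With wounded RNA in Cy5 its replicates had 0.88, 1.09 and 0.63, and with it in Cy3 1.20, 0.95 and 1.26.

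**Figure D2:**
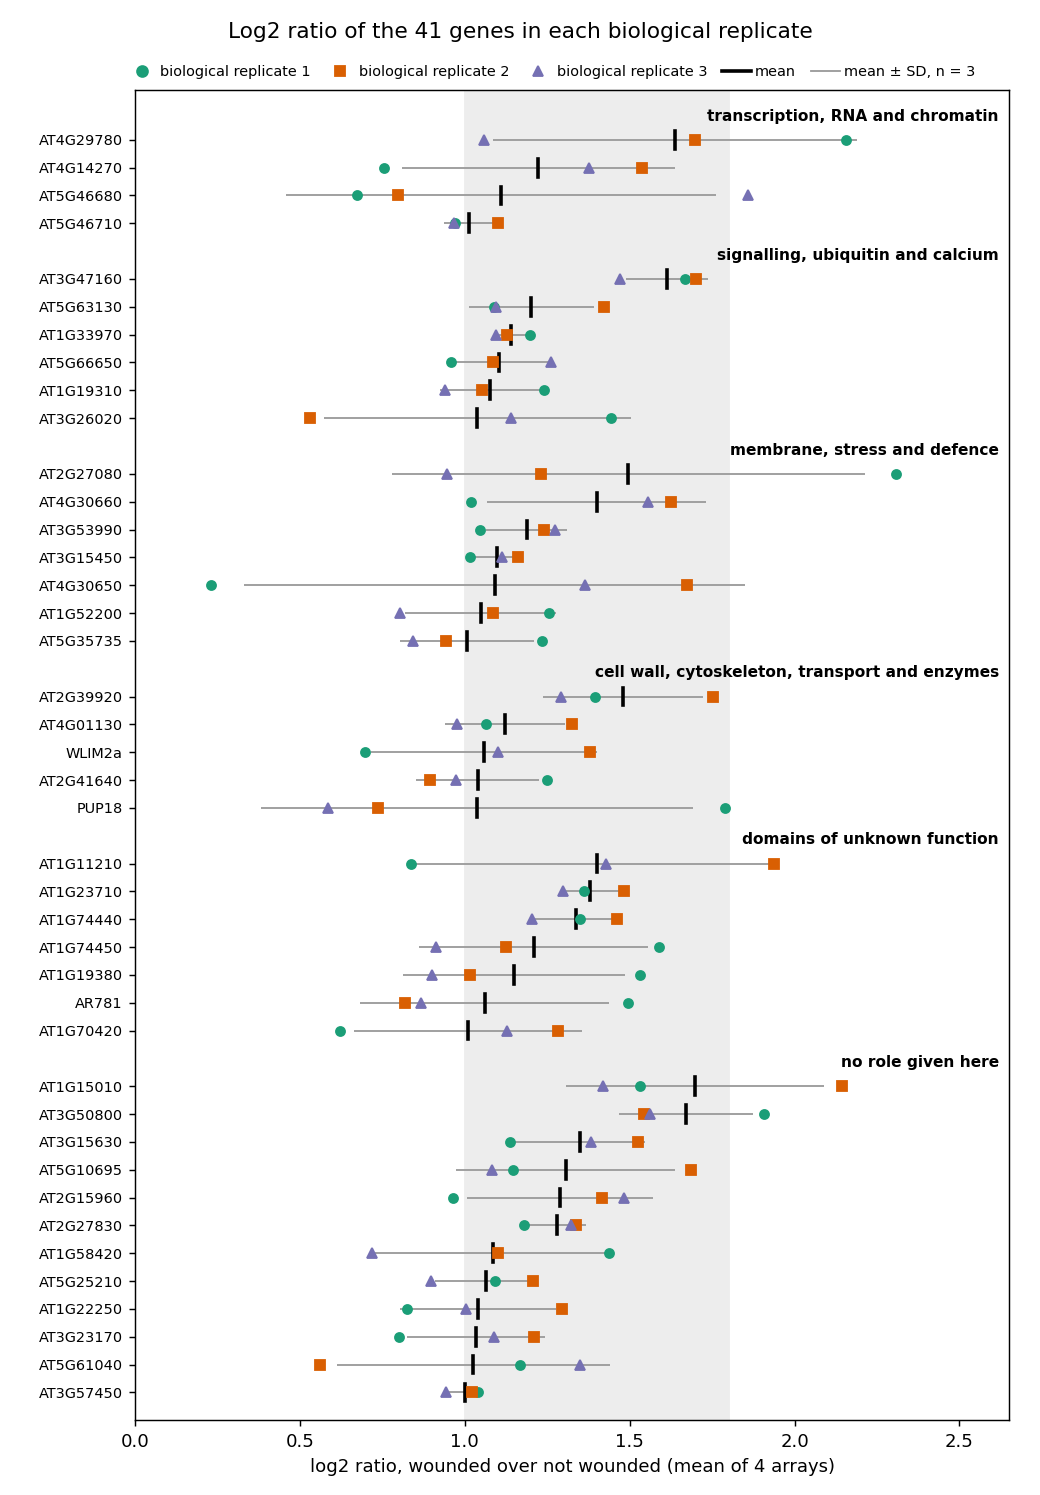
Log2 ratio of wounded over not wounded for each of the 41 genes, with symbols for the 3 biological replicates (each the mean of 4 arrays), a black bar for their mean, a grey line for ± SD (n = 3) and grey shading over the range from 1.0 to 1.8, ordered by role. Every symbol lies to the right of 0, the lowest at 0.23 (AT4G30650, replicate 1) and the highest at 2.31 (AT2G27080, replicate 1).

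The median SD over biological replicates was 0.24 for the 41 genes, beside 0.12 for all spots of 1 gene. The 2 technical replicates of a biological replicate, each a dye-swap pair, differed by a median of 0.05, 0.04 and 0.06 on the log2 scale in replicates 1, 2 and 3, with a largest difference of 0.63 (AT3G26020, replicate 3). These pairs average over the dyes, and the dye orientations of 1 replicate differed more, by a median of 0.46. AT3G47160, for example, had 0.89 and 2.06 in replicate 3 with wounded RNA in Cy5 and in Cy3, beside an SD of 0.12 over its replicates. Within 1 orientation, which leaves the match of numbers between dyes aside, the median SD over replicates was 0.38 (Cy5) and 0.35 (Cy3), and the 2 arrays of a replicate differed by a median of 0.07 and 0.05. There were 6 genes with an SD above 0.5 (AT4G30650, AT2G27080, PUP18, AT5G46680, AT4G29780 and AT1G11210), and as many with one under 0.1 (AT3G57450, AT1G33970, AT3G15450, AT5G46710, AT2G27830 and AT1G23710). Of the 41 genes, 15 were at least 1.0 on the log2 scale in each replicate.

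Which replicate was highest was not the same for all genes. Replicate 1 was the highest for 15 of the 41 genes and the lowest for 16, replicate 2 the highest for 21 and the lowest for 5, and replicate 3 the highest for 5 and the lowest for 20. As shares of the set, replicates 1, 2 and 3 were highest for 36.6%, 51.2% and 12.2%. Among the 2720 spots of 1 gene above 0 in all replicates these shares were 48.3%, 36.2% and 15.4%. The replicates were lowest for 39.0%, 12.2% and 48.8% of the set, beside 30.8%, 20.5% and 48.7% of those spots. These orders average over the dyes and rest on the replicate numbers of the titles. With wounded RNA in Cy5 the 41 genes had medians of 1.31, 1.63 and 1.04 in replicates 1, 2 and 3. With it in Cy3 the medians were 1.14, 0.98 and 1.19, so replicate 2 was then the lowest. Genes lowest in replicate 1 included AT4G30650, AT4G30660, AT1G11210, AT4G14270, AT1G70420, AT2G15960 and WLIM2a, and genes highest there AT2G27080, AT4G29780, PUP18, AT1G74450, AT1G19380, AR781 and AT1G58420. Either sample could differ between replicates, as the plot of signals shows. For AT4G30650 the not wounded signals were 642, 655 and 492 and the wounded signals 753, 2092 and 1265, so the replicates differed mainly in the wounded sample, while for PUP18 and AT2G27080 the not wounded level of replicate 1 was the one apart. Signals were not normalised between arrays beyond what the authors did.

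**Figure D3:**
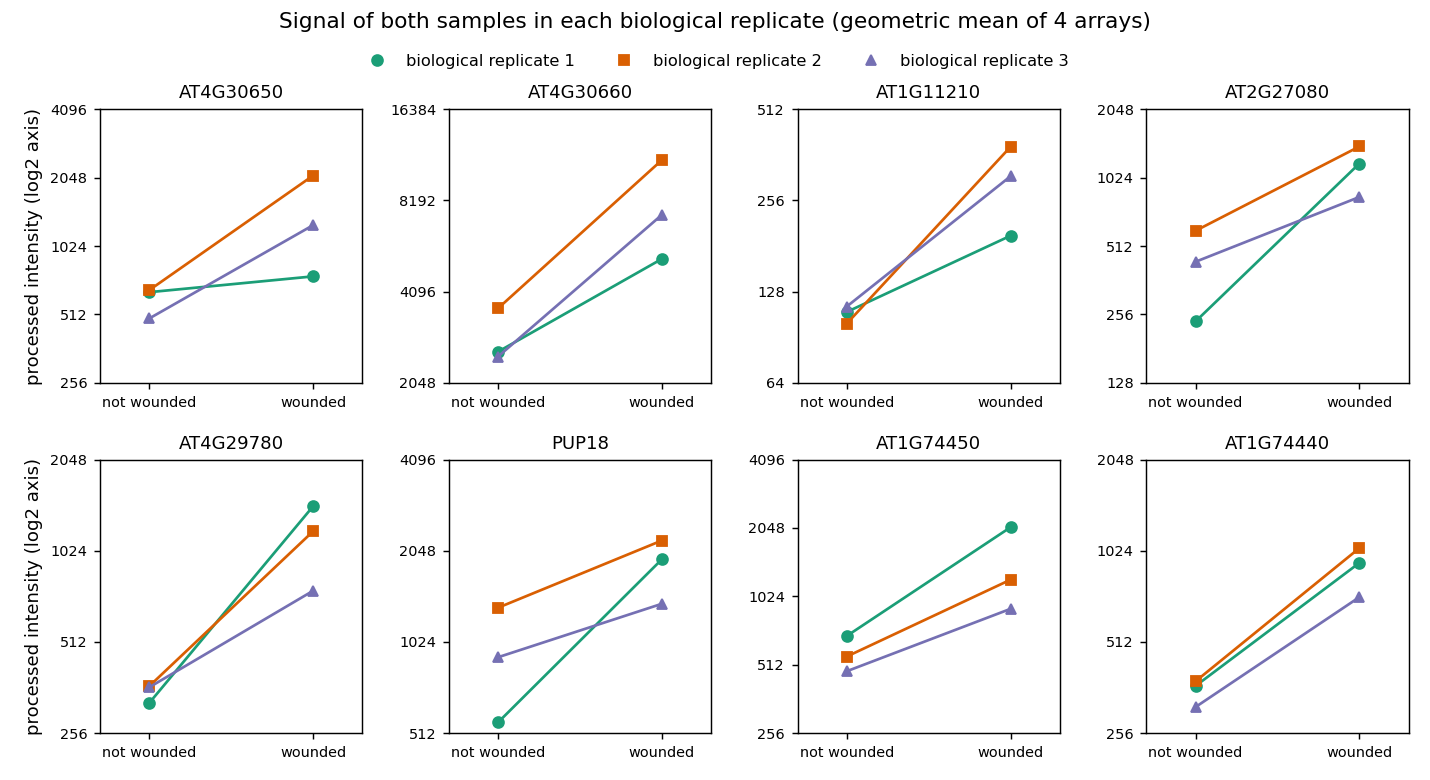
Processed intensity (log2 axis, a scale of its own for each gene) of the not wounded and the wounded sample in each biological replicate, as the geometric mean of 4 arrays, for 8 of the genes. The line of AT4G30650 in replicate 1 is nearly flat (642 to 753), whereas those of AT2G27080 and PUP18 in replicate 1 start lowest and end between the other replicates.

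Each gene was measured with the wounded sample in Cy5 on 6 arrays and in Cy3 on 6, called the Cy5 and the Cy3 orientation here, and the difference between them was not used to choose the genes. All 41 genes had a ratio above 0 on 6 of 6 arrays in the Cy5 orientation. In the Cy3 orientation 35 were above 0 on 6 of 6 arrays, so that 35 of 41 genes (85.4%) were above 0 on all 12 arrays. Among all spots of 1 gene 8.16% were, but the 41 were chosen on the mean of the same ratios. The 6 exceptions were AT1G22250, below 0 on 1 array, AT2G41640, below 0 on 2, AT5G66650, below 0 on 4, and AT3G26020, AT5G46680 and AT5G61040, below 0 on 6 of 6 arrays of the Cy3 orientation.

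Exceptions and dim spots nearly coincided. In 35 genes the not wounded signal was above the dim limit on all 12 arrays, and in 34 of these the ratio was above 0 on all 12. Their mean log2 ratio was between 0.85 and 2.02 in the Cy5 orientation and between 0.51 and 1.73 in the Cy3 orientation. In the other 6 genes the spot was dim in the not wounded sample on 9 arrays (AT5G61040), 7 (AT3G26020 and AT5G46680), 6 (AT5G66650), 4 (AT1G11210) or 2 (AT2G41640) of 12. The wounded sample was dim too on 6 arrays (AT5G61040 and AT5G46680), 4 (AT3G26020) or 1 (AT5G66650), and on none for AT1G11210 and AT2G41640. AT5G61040 had a mean log2 ratio of 3.94 in the Cy5 and -1.89 in the Cy3 orientation, AT5G46680 had 4.09 and -1.87, AT3G26020 had 2.68 and -0.60, AT5G66650 had 2.30 and -0.10, AT2G41640 had 1.96 and 0.12, and AT1G11210 had 1.82 and 0.98. The direction of the first 4 therefore differed between orientations, and their place in the set rests on the Cy5 orientation. With signals below the dim limit raised to it, the mean log2 ratio was 0.39 for AT5G61040, 0.76 for AT5G46680, 0.58 for AT3G26020, 0.61 for AT5G66650, 0.94 for AT2G41640 and 1.24 for AT1G11210. Only AT1G11210 of the 6 then stayed above 1.0.

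**Figure D4:**
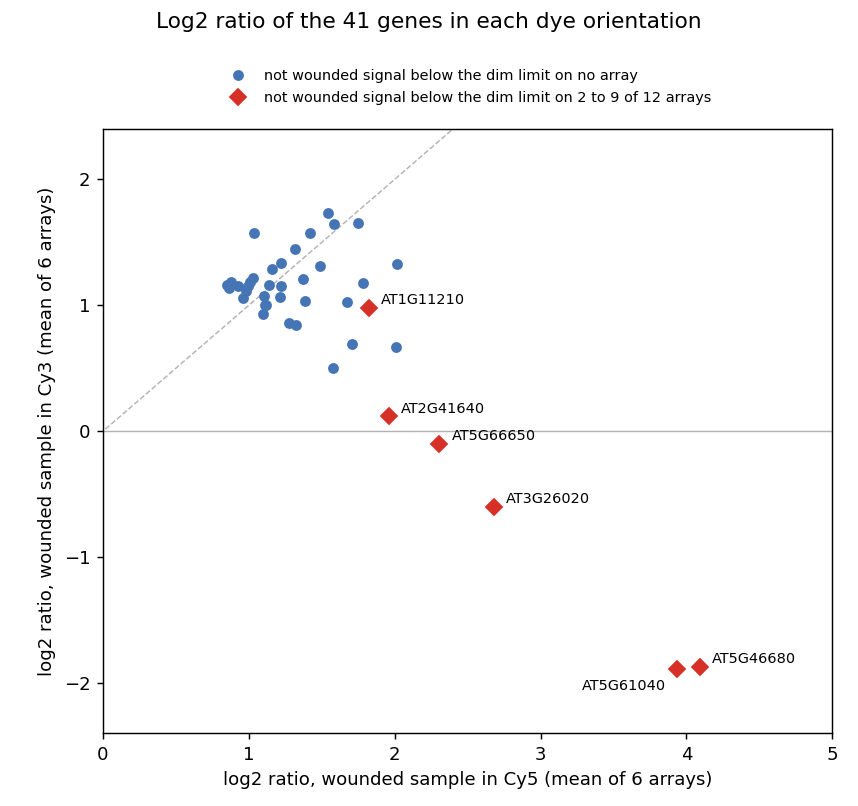
Mean log2 ratio of wounded over not wounded over the 6 arrays of the Cy5 orientation (x axis) and the 6 of the Cy3 orientation (y axis) for each of the 41 genes, with red diamonds for the 6 genes whose not wounded sample was dim on 2 to 9 of 12 arrays. The 35 other genes lie on both sides of the dashed line of equal ratios, between 0.51 and 1.73 on the y axis, while the named genes lie below the line, down to -1.89 in the Cy3 orientation (AT5G61040).

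For each spot the Cy5 orientation minus the Cy3 orientation gave 1 value per biological replicate, and limma tested these 3 values against 0, with p adjusted by Benjamini-Hochberg over 20135 spots. The orientations were paired by the replicate numbers of the titles, which the arrays did not bear out for replicates 2 and 3. The SDs, p values and counts below depend on this pairing, while the mean differences do not. At an adjusted p under 0.05, 5 of the 41 genes (12.2%) differed with the dye, beside 23.7% of all spots tested, and all 5 were higher in the Cy5 orientation. The median size of the difference was 0.19 for the 41 genes and 0.42 for all spots tested. These were AT5G66650 (difference 2.40 ± 0.28, SD, n = 3; adjusted p = 0.0059 from limma), AT3G26020 (3.28 ± 1.21; adjusted p = 0.027), AT1G74440 (1.34 ± 0.47; adjusted p = 0.03), AT5G61040 (5.82 ± 2.54; adjusted p = 0.037) and AT3G50800 (0.69 ± 0.24; adjusted p = 0.049). AT1G74440 and AT3G50800 were never dim and were above 0 in both orientations, at 2.01 and 0.67 and at 2.02 and 1.33. AT5G46680 had the largest difference of the set, 5.96, but also the largest spread (SD of 3.78; adjusted p = 0.076 from limma). The count of 5 was 0 without replicate 1, 2 without replicate 2, 9 without replicate 3 and 9 with the 6 dye-swap pairs and a replicate block. The share of all spots tested moved alike, to 1.55%, 8.09%, 33% and 35.1%. In replicate 3 the orientations were furthest apart for AT5G46680, with 7.02 and -3.30.

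The genes lay on all 5 chromosomes, with 13, 7, 8, 5 and 8 on chromosomes 1 to 5, and some lay close together. Counting protein-coding genes in the order of a gene table of assembly TAIR10.1, AT1G74440 and AT1G74450, and AT4G30650 and AT4G30660, are immediate neighbours. AT2G39900 (WLIM2a) and AT2G39920 are separated by 1 gene, AT5G46680 and AT5G46710 by 2, and AT1G19310 and AT1G19380 by 6. The gene between AT2G39900 and AT2G39920, AT2G39910, had a log2 ratio of 0.29, 0.45 and 0.29. Of 23 next neighbours that are not members and have a named spot, none reached 1.0, and their log2 ratios ran from -0.33 to 0.61 with a median of 0.00. The highest was AT1G19370, next to AT1G19380, with 0.67, 0.75 and 0.42.

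Genes known for early wound or touch responses were set beside the 41. Of 27 such genes listed, 3 had a named spot and none was a member. PUB22, a ubiquitin ligase that dampens immune signalling, had a log2 ratio of 0.96, 0.90 and 0.58. Its relative PUB23 had 1.16, 0.09 and 0.91, and the transcription factor WRKY53 had 0.80, 0.01 and -0.02. The PUB23 spot was dim on 8 of 12 arrays in the not wounded sample and on 6 in the wounded sample. Its ratio was 3.45 in the Cy5 and -2.01 in the Cy3 orientation. Of the 3, 2 were thus above 0 in all replicates, as were 29.1% of all spots of 1 gene. Of 17 genes that the study's text names, 4 had a named spot and all 4 were above 0 in each replicate. The study picked them on these samples, and none is among the 41. AP2C1 (log2 ratio 1.30) met the conditions but was set aside by name. ERF#018 (3.54), CML38 (2.87) and AT1G32920 (2.06) lay above the range. The promoter and protein sequences of the 41 genes were not analysed here.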

How the data were processed

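The authors scanned 12 two-colour Agilent arrays and read them with Agilent Feature Extraction 8.1, which gave for each of 22575 spots a background-subtracted, dye-normalised processed intensity in Cy3 and in Cy5. These deposited intensities were used as they are. A deposited table gives log10 ratios (Cy5 over Cy3), exactly 0 at some spots, mostly of low signal, and served as an alternative and for the dim limit (95th percentile of the signals at such spots). It matched the intensities (Pearson r of at least 0.99999 at spots neither 0 nor at the limit of the table). Background, saturation and control flags and scan dates were not used here.

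Each log2 ratio was turned by the channel labels to read wounded over not wounded. Means were taken over the 4 arrays with the same replicate number, then over 3 replicates. Each biological replicate was a pool of plants, per the study's methods, and arrays of 1 number share it by their titles. Deviations of same-numbered orientation means correlated across spots at 0.14, -0.43 and -0.64, and between numbers 2 and 3 at 0.67 and 0.62. The titles' numbers were kept. The members and gene lists were chosen with earlier results of these data known.

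The difference between orientations was tested with limma 3.58.1 in R 4.3.3 (lmFit, eBayes) over spots with a deposited ratio other than 0 on at least 1 array of each of 6 dye-swap pairs, which all 41 genes passed. The fit was tested on simulated data first. Named spots came from the platform annotation (9335 spots with 1 gene, 40 with several, 13200 with none), updated for 9317 spots through Entrez identifiers. By the rule for naming genes every member is named, with replicate values for the 10 highest means and the 5 highest and 5 lowest SDs and for others where a role group is described. The planned promoter search was not run.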

Additional observations from a re-analysis of the deposited data

Results flagged for a closer look

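The log2 ratio differed between the dye orientations (wounded sample in Cy5 minus wounded sample in Cy3) in 5 of the 41 genes (12.2%, beside 23.7% of all spots tested) at an adjusted p under 0.05 from limma, by 0.69 for AT3G50800, 1.34 for AT1G74440, 2.40 for AT5G66650, 3.28 for AT3G26020 and 5.82 for AT5G61040. AT5G46680 was above 0 on 6 of 6 arrays in one orientation and below 0 on 6 of 6 in the other, a difference of 5.96 whose adjusted p was 0.076 from limma. The count of 5 and the adjusted p values depend on the replicate numbers of the titles, while the mean differences do not. A single array lay far from the others of its orientation in 1 of 82 groups of 6 arrays. The cutoff used flags about 1 in 20 groups of independent values by chance. Each group holds 2 arrays from each of 3 pools, so that rate does not apply here. AT2G41640 had a log2 ratio of 2.94 on an array of replicate 3 with the wounded sample in Cy5, and the nearest other value was 1.96.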

How the results depend on the processing

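The number of named spots meeting the conditions was 501 in the Cy5 orientation alone and 272 in the Cy3 orientation alone, with 26 and 29 of the 41 genes among them, 65 with a lower bound of 0.9 and 23 with one of 1.1. It was 43 to 52 with a replicate left out, with 30 to 34 of the 41 genes among them, and within 37 to 54 under the other alternatives. The median log2 ratio was 1.31 in the Cy5 orientation alone, 1.20 without the array whose label differs, and 1.14 to 1.17 with a replicate left out. In the Cy3 orientation alone, AT3G26020 (-0.60), AT5G46680 (-1.87), AT5G61040 (-1.89) and AT5G66650 (-0.10) turned. The other 447 of 451 values kept their direction, which the choice of the genes fixed in large part. With a replicate left out no mean could turn, since each replicate had to be above 0. Most other alternatives reuse the ratios that chose the genes. Genes with a dye effect numbered 9 with a replicate block over 6 dye-swap pairs (35.1% of all spots tested), 9 with a robust intensity trend (27.8%), and 0 to 9 with a replicate left out (1.55% to 33%); the cause was not tested. Genes above 0 on every array numbered 35 to 37 under the alternatives chosen after seeing the data. The 3 pools of plants per sample limit the precision. The promoter alternatives were not run, since no sequence was used here.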
